A study of Anser sp. with 4 samples.

Results

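Ventral skin of female geese at 10 days after molt was compared with ventral skin at 1.5 days after molt, which spans the early regrowth of the feathers. This comparison uses 2 of the 4 arrays of the series, chosen by the sampling time in the labels, and covers 19511 of the 31550 transcript identifiers on the array, those of which a probe was well above background on 1 or both of them. Total RNA from each time was labelled with Cy3 and hybridised to 1 one-colour array, and the other 2 arrays carry skin taken before molt and at 5 days. The design text names 6 geese kept apart and says that skin was taken at each time, and the series title gives the breed as Wanxi-White. The labels do not say whether RNA of several birds was pooled, which bird gave which sample, or how old the birds were at sampling. All groups share breed, sex, skin site, diet and housing, and no treatment other than the time relative to molt is labelled. With 1 array a side there is no replicate error, no test and no p-value, and each difference between the arrays holds the difference between the sampled birds as well as that between times.

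A feather grows from a follicle in the skin, in which a dermal papilla at the base signals to a ring of proliferating epidermal cells, the collar. When the old feather is shed at molt, the collar starts a new growth phase: its cells multiply, form the barbs and shaft, fill with keratins and corneous beta-proteins, and die as they harden. Whole skin also holds interfollicular epidermis, dermis, vessels, fat, muscle and blood cells, so that a level in bulk RNA can move with the share of a cell type or with the RNA per cell, which cannot be told apart here.

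Per the file headers the probes were designed on the chicken build galGal3, so the goose transcripts were hybridised to sequences of a different bird. The identifiers are chicken Ensembl and RefSeq accessions and other names. The files have 0 columns that pair them with gene symbols, so results are given per identifier, markers of cell types could not be read, and only 4 identifiers are named. A level below is the log2 of the spot intensity less the 75th percentile of its own array, and a ratio is the difference of the levels at 10 and 1.5 days, so that each probe is compared with itself. Where a probe was not well above background on 1 of the arrays, its value there was raised to the detection bound if it lay lower. The ratio is then a bound.

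The arrays were alike in the share of spots well above background, and no measure of RNA quality is given. Identifiers detected numbered from 17061 at 5 days to 18883 before molt. At 1.5 days 56.6% of the 43803 non-control spots were well above background, at 10 days 55.2%, and over all 4 arrays 52.4% to 57.5%, with 0 saturated spots. All 4 arrays lay on 1 slide and were read in 1 scan. The 100 brightest spots held 35.8% of the non-control signal at 1.5 days and 43.6% at 10 days. Over the 21114 probes detected on each of the 4 arrays, the levels at 10 and 1.5 days had a Pearson r of 0.961, lower than that of 1.5 with 5 days (0.982) and of 10 days with before molt (0.969), and higher than that of 10 with 5 days (0.957), 1.5 days with before molt (0.946) and 5 days with before molt (0.936). These are correlations across probes of the same slide, not across samples.

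Most identifiers stood at a similar level at both times, and those that stood apart were more often higher than lower at 10 days. Of 19511 identifiers, 61.4% were within 1.5-fold, and the quartiles of the log2 ratio were -0.46 and 0.42 around a median of -0.06. At least 2-fold higher at 10 days were 1920 identifiers (9.84% of those compared), and at least 2-fold lower 1424 (7.3%). At 4-fold 373 were higher (1.91%) and 177 lower (0.907%), at 8-fold 71 and 26, and at 16-fold 17 and 3. Higher identifiers therefore made up 57.4% of those past 2-fold and 67.8% of those past 4-fold. Of the higher identifiers 422 were not well above background at 1.5 days, and of the lower ones 384 were not at 10 days. Over all 19511 identifiers 1025 were not at 1.5 days and 1506 were not at 10 days. The largest ratio among identifiers measured on both arrays was 63.7-fold higher and 26.6-fold lower.

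**Figure D1:**
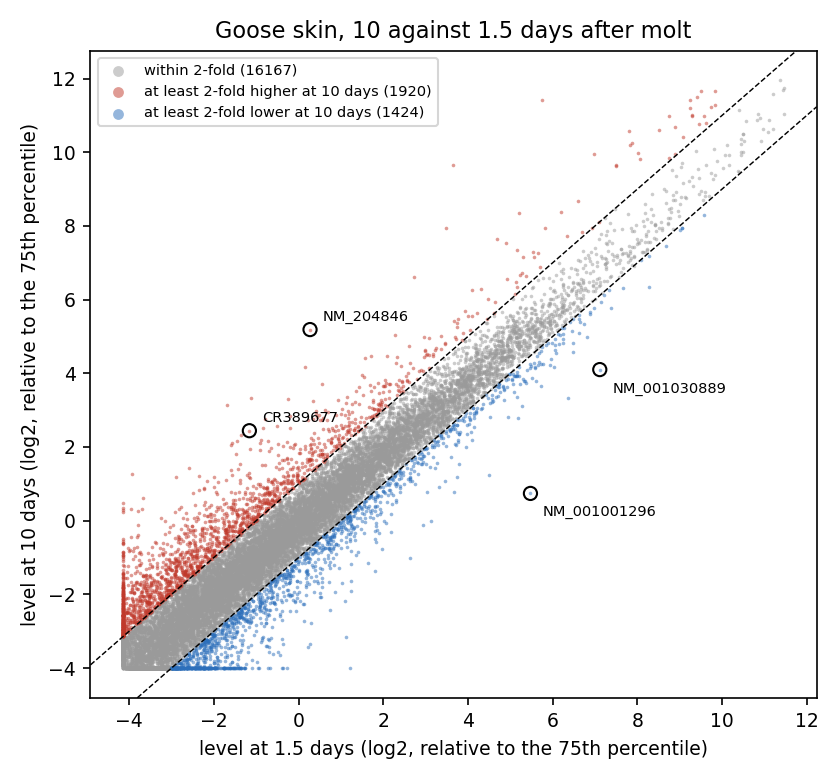
Level of each of the 19511 identifiers at 1.5 days (horizontal axis) and 10 days (vertical axis), both as log2 relative to the array's 75th percentile. The dashed lines mark 2-fold, red points lie at least 2-fold higher and blue points at least 2-fold lower at 10 days, circles mark the 4 named identifiers, and the rows of points at the left and lower edges are values at the detection bound.

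The balance of directions depended on the scale and on how many probes read an identifier. After median centring 53.3% of the identifiers past 2-fold were higher, and after normexp background correction 52.1%. The spike-in control RNAs stood lower against the goose signal at 10 than at 1.5 days, by a mean log2 shift of -0.51 ± 0.09 (SD over 6 mid-range spike-in probes, range -0.67 to -0.42). Over all arrays, each of these 6 probes stood lowest before molt and highest at 1.5 days. Scaled on these probes, 4366 identifiers were at least 2-fold higher and 484 lower, so that 90.0% were higher and the median ratio of all identifiers was 0.45. The counts above thus hold for signal relative to the 75th percentile and not for amounts per tissue, and the source of the spike-in shift was not tested. Among the 4397 identifiers read by 2 or more probes, the order turned at 2-fold: 171 were at least 2-fold higher and 198 lower, or 46.3% higher. This order did not hold on each scale, with 50.4% higher after quantile normalization, 50.3% in the authors' log2 table and 94.7% after spike-in scaling. At 4-fold the order did not turn, with 20 of these identifiers higher and 6 lower, or 76.9% higher.

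The identifiers named here are those with the largest mean ratio each way among identifiers whose probes, 2 or more, were all well above background on both arrays and all past 2-fold in 1 direction. With 2 or more probes, all well above background on both arrays, there were 3552 identifiers. Of these 3552, 50 were past 2-fold higher on every probe, with a median of 2.95-fold, and 69 lower, with a median of 2.50-fold. They are named by identifier only.

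NM_204846, a RefSeq mRNA read by 2 probes, had a mean level of 3.85 on the array from before molt, 0.27 on day 1.5, 0.46 on day 5 and 5.19 on day 10. It was low at 1.5 and 5 days and high on the other arrays, and stood 30.2-fold higher at 10 than at 1.5 days, the fourth largest ratio of all identifiers. Its probes differed in size, at 7.01-fold and 130-fold higher, and both were low at 1.5 and 5 days. Without the brighter probe the value is thus 7.01-fold.

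CR389677, read by 2 probes, had a mean level of 1.76 in skin from before molt, -1.16 on day 1.5 and 2.44 on day 10. At 5 days both probes were not well above background and the level is given as the bound of -3.65. It stood 12.2-fold higher at 10 than at 1.5 days, with its probes at 10.3-fold and 14.3-fold, and was lowest at 5 days.

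NM_001001296, a RefSeq mRNA read by 2 probes, had the lowest ratio among the identifiers measured on both arrays. Its level was 1.74 in skin from before molt, 5.48 on day 1.5, 3.31 on day 5 and 0.74 on day 10. It stood 26.6-fold lower at 10 than at 1.5 days, with its probes at 17.0-fold and 41.8-fold lower, and its level was highest at 1.5 days, lower at 5 days and lowest at 10 days on both probes.

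NM_001030889, a RefSeq mRNA read by 3 probes, had a level of 5.64 in skin from before molt, 7.11 on day 1.5, 5.61 on day 5 and 4.10 on day 10. It stood 8.07-fold lower at 10 than at 1.5 days, and its probes lay close together, at 7.80-fold, 7.96-fold and 8.46-fold lower. Its level at 5 days was within 1.02-fold of that before molt, and that at 10 days was below both.

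**Figure D2:**
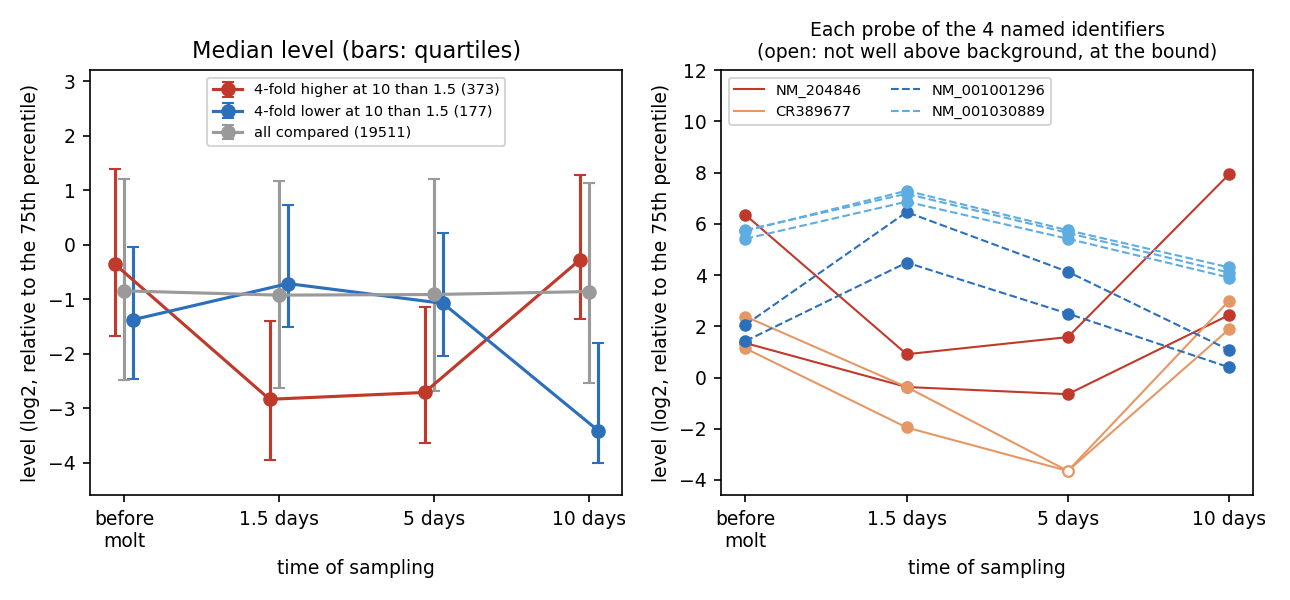
Left, median level on each array with quartile bars for the 373 identifiers at least 4-fold higher and the 177 at least 4-fold lower at 10 than at 1.5 days, and for all 19511. Right, level of each probe of NM_204846, CR389677, NM_001001296 and NM_001030889 on the 4 arrays, with open points at the detection bound; the medians of the higher group are -2.84 at 1.5 days and -0.28 at 10 days, and those of the lower group -0.71 and -3.41.

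The arrays from before molt and from day 5 had no part in choosing the higher and lower identifiers, and show where their levels lay at the other times. The 373 identifiers at least 4-fold higher at 10 days had a median level of -0.35 in skin from before molt, -2.84 on day 1.5, -2.71 on day 5 and -0.28 on day 10. They were thus low at 1.5 and 5 days, with the level at 10 days near that before molt. The 177 at least 4-fold lower had a median level of -1.38 in skin from before molt, -0.71 on day 1.5, -1.08 on day 5 and -3.41 on day 10. Detected were 161 of the 177 (91.0%) in skin from before molt, 171 (96.6%) on day 5 and 101 (57.1%) on day 10. Over all identifiers compared these shares were 92.9%, 86.5% and 92.3%. For both sets the levels at 1.5 and 10 days are set in part by the choice. A median of the 177 that was lowest at 10 days, with fewest detected there, is therefore no separate result. Over all identifiers compared, the medians of the 4 arrays lay between -0.93 and -0.85.

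At day 5 most of these identifiers were still nearer their level at 1.5 days than that at 10 days: 476 (24.8%) of the 1920 higher and 311 (21.8%) of the 1424 lower ones were nearer the level at 10 days. Under normexp the share of lower ones was 55.7%, so that their order turned, and with spike-in scaling the share of higher ones was 43.5%. No such share over all identifiers is given here, so these shares are not read as particular to the chosen identifiers. Over all probes detected on each array, the levels at 5 days also correlated more with 1.5 days (0.982) than with 10 days (0.957). Of the 1920 higher identifiers 951 (49.5%) were at 5 days within 2-fold of their level at 1.5 days and at least 2-fold below that at 10 days, 273 (14.2%) were within 2-fold of the level at 10 days and at least 2-fold above that at 1.5 days, 539 were within 2-fold of both, 23 lay between, 130 were at least 2-fold below both and 4 at least 2-fold above both. Their median step was 0.41 on the log2 scale from 1.5 to 5 days and 1.15 from 5 to 10 days. With detection required at both 1.5 and 10 days the first step was 0.15, and under normexp it was 0.22. The bound for dim values was -4.14 at 1.5 days and -3.65 at 5 days. Values at the bound at both times thus show a rise by construction. Of the 1424 lower identifiers 750 (52.7%) were at 5 days near their level at 1.5 days only, 98 (6.88%) near that at 10 days only, and 550 within 2-fold of both. Their median steps were -0.31 and -1.06. The 2 steps share the array of 5 days and add up to the ratio that chose the identifiers. The identifiers with every probe past 2-fold gave steps of the same order: the 61 higher had median steps of 0.13 and 1.51, and the 86 lower of -0.47 and -0.87.

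The level before molt lay nearer the 10 day level in 1490 (77.6%) of the 1920 higher ones and in 831 (58.4%) of the 1424 lower ones. With spike-in scaling the latter share was 29.1%. Here too no share over all identifiers is given, and the shares are not read as particular to the chosen identifiers. Over all probes detected on each array, the levels before molt also correlated more with 10 days (0.969) than with 1.5 days (0.946). Within 2-fold of the level at 10 days and at least 2-fold above that at 1.5 days were 1094 (57.0%) of the higher identifiers before molt. For the lower ones, 563 (39.5%) were before molt near their level at 10 days only and 377 (26.5%) near that at 1.5 days only. At 4-fold the order of the lower identifiers turned, with 58 of 177 near the level at 10 days only and 89 near that at 1.5 days only.

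The comparison of 5 days with before molt uses neither of the arrays compared here and had the opposite sign for most of the same identifiers. Of the 1920 higher identifiers 1554 (80.9%) were below 0 in it, and of the 1424 lower ones 402 (28.2%), where 46.4% of all identifiers were. At least 2-fold lower on day 5 against before molt were 990 (51.6%) of the higher ones, and 71 (3.70%) were at least 2-fold higher. Over all 19511 identifiers these shares were 12.2% and 8.61%. The median ratio of 5 days to before molt was -1.04 on the log2 scale for the higher identifiers and 0.06 for all. Of the 373 at least 4-fold higher, 294 (78.8%) were at least 2-fold lower on day 5 against before molt, with a median of -2.14. Of the 1424 lower identifiers 371 (26.1%) were at least 2-fold higher on day 5 against before molt and 68 (4.78%) lower, with a median of 0.43. Across the 19511 identifiers the Pearson r of the 2 ratios was -0.48, a correlation across identifiers whose arrays share a slide and whose probes are the same.

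**Figure D3:**
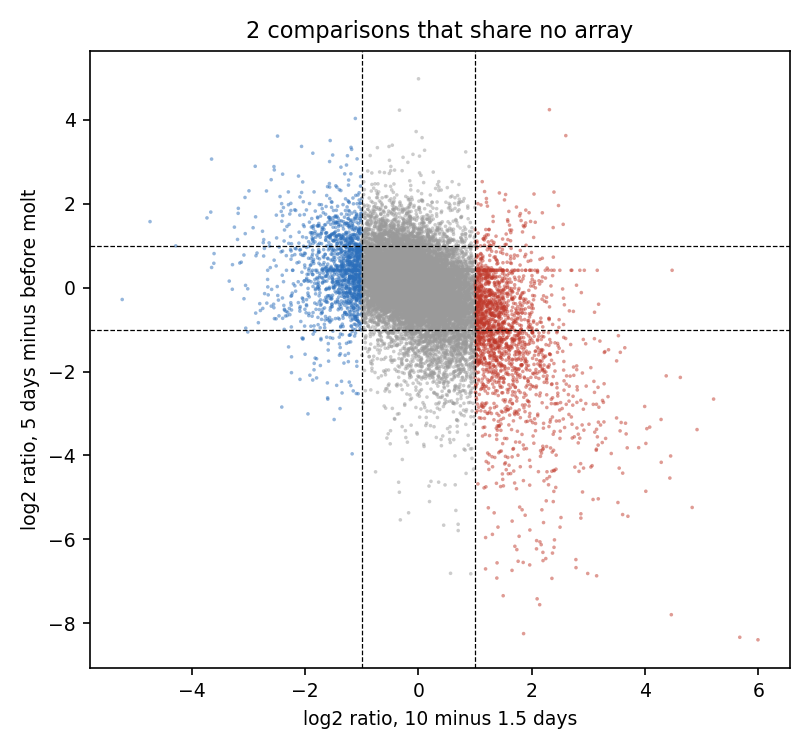
Log2 ratio of 10 to 1.5 days (horizontal axis) and of 5 days to before molt (vertical axis) for 19511 identifiers. Dashed lines mark 2-fold, and the red points, at least 2-fold higher at 10 than at 1.5 days, lie below the lower line for 990 of 1920 identifiers; the faint row of points near 0.4 is set by unequal detection bounds.

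The same reading with dim probes left out gave similar shares. Over 15830 identifiers with probes well above background on all 4 arrays, 660 of 1286 higher identifiers (51.3%) were at least 2-fold lower on day 5 against before molt, against 10.7% of all, and 290 of 1026 lower ones (28.3%) at least 2-fold higher, against 9.26% of all. Under the 7 other settings tried, the share of higher identifiers so placed lay between 47.1% and 55.5% and the share of lower ones between 11.3% and 32.5%. The lowest shares of lower ones were those of normexp, 11.3% against 1.20% of all identifiers, and of spike-in scaling, 14.3% against 2.48% of all. With spike-in scaling the share of all identifiers at least 2-fold lower on day 5 against before molt rose as well, to 26.0%.

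The 100 brightest identifiers before molt held many that were higher at 10 days. Identifiers were ranked by their level before molt, an array that the comparison does not use. Brightness is not a measure of abundance between identifiers, since it also holds how well each chicken probe binds the goose transcript. Of the 100 brightest, 30 were at least 2-fold higher at 10 than at 1.5 days and 2 lower, where 9.84% and 7.3% of all identifiers were. At 4-fold 15 were higher and 0 lower. In ranks 101 to 1000 the shares were 6.89% higher and 6.89% lower, in ranks 1001 to 5000 8.45% and 5.83%, in ranks 5001 to 10000 11.0% and 6.44%, and from rank 10001 on 9.88% and 8.46%. At 2-fold, higher identifiers outnumbered lower ones widely in the first 100 and not at all in the next range, a difference that was not tested. At 4-fold, higher identifiers outnumbered lower ones in ranks 101 to 1000 as well, with 15 (1.67%) and 3 (0.333%). Over all identifiers the shares at 4-fold were 1.91% and 0.907%.

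**Figure D4:**
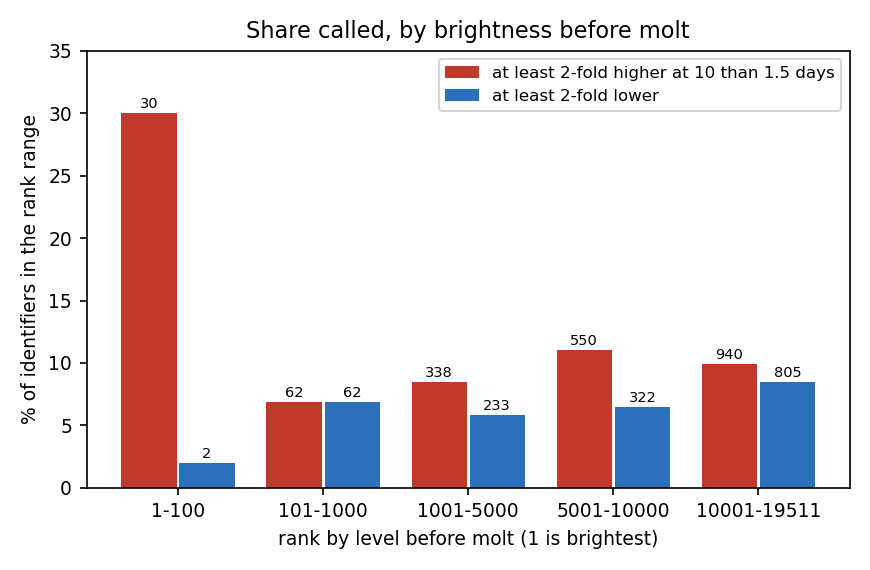
Share of identifiers at least 2-fold higher (red) and lower (blue) at 10 than at 1.5 days, in percent of each range of ranks by level before molt, with the number of identifiers above each bar. The first 100 identifiers hold 30 higher and 2 lower ones.

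The 30 higher identifiers among the 100 brightest had a median level of 10.90 in skin from before molt, 8.82 on day 1.5, 5.17 on day 5 and 10.64 on day 10. At 5 days 28 of the 30 were at least 4-fold below their level before molt. The 68 of the 100 that were within 2-fold at 10 and 1.5 days had medians of 9.86, 9.76, 9.81 and 9.57, and 2 of them were at least 4-fold lower on day 5 against before molt. None of the 30 (0) was read by more than 1 probe in use, against 13 of the 68, so their ratios had no check on a second probe. How many genes the 30 identifiers stand for is not known from the files.

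Identifiers read by 1 probe passed 2-fold more often than those read by several. Of 15114 identifiers with 1 probe in use 11.6% were higher and 8.11% lower, whereas of 2964 with 2 probes the shares were 4.72% and 5.09%, and of 432 with 4 or more probes 1.62% and 2.08%. Averaging over probes narrows the ratios by construction, and the identifiers with 1 probe were also dimmer, with a median level of -1.28 against 0.97 for those with 4 or more. Of the identifiers past 16-fold, 16 of the 17 higher and 2 of the 3 lower were read by 1 probe. So were 1749 of the 1920 higher and 1226 of the 1424 lower past 2-fold, and 15114 of all 19511.

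Agreement between probes of 1 identifier was the check on a ratio. The SD of the log2 ratio between different probes of 1 identifier was 0.62 over 4397 identifiers, 0.42 for bright probes, with a mean level over the 75th percentile (1773 identifiers), and 0.76 for dimmer probes (1714 identifiers). Repeated spots of 1 probe spread less, with an SD of 0.19 over 23 probes with 5 spots each, all of them detected on both arrays. The threshold of 1 on the log2 scale lies close to this SD for dim probes, and well over it for repeated spots.

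Where several probes read an identifier past 2-fold, they mostly lay on 1 side of 0, in both directions. Of 171 higher identifiers 142 had every probe above 0 and 61 had every probe past 2-fold. Of 198 lower identifiers 186 had every probe below 0 and 86 had every probe past 2-fold. Whether the directions differ was not tested. Of the 20 past 4-fold higher, 15 had every probe past 2-fold, and of the 6 past 4-fold lower, 4 did. These shares include the probes that chose the identifiers. Identifiers with 3 or more probes in use comprised 1001 with 3 probes and 432 with 4 or more. Of all these, only 9 were past 2-fold higher and 16 lower on every probe.

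When the ratio was read on probes that had no part in the choice, much of it was not shared. Identifiers past 2-fold on alternate probes were read on their remaining probes. For the 273 higher identifiers so chosen, the remaining probes gave a median log2 ratio of 0.30 (quartiles -0.34 and 0.99), with 167 above 0 and 68 (24.9%) past 2-fold. For the 308 lower identifiers so chosen the median was -0.64 (quartiles -1.09 and -0.09), with 249 below 0 and 92 (29.9%) past 2-fold. Over all 4397 identifiers the remaining probes had a median of -0.11. For scale, on the remaining probes alone 299 of all 4397 were at least 2-fold higher and 323 lower. On the mean of all their probes, which averaging narrows, the shares were 3.89% and 4.50%. The Pearson r between choosing and remaining probes was 0.31 over the 4397 identifiers and 0.56 over the 1196 in which every probe lay above the 75th percentile. Over all identifiers with several probes a larger ratio on the choosing probes did not bring a larger median. For the 55 identifiers at least 4-fold higher on the choosing probes, the remaining ones gave a median of 0.13, with 28 above 0 and 20 (36.4%) past 2-fold. For the 27 at least 4-fold lower the median was -0.37, with 20 below 0 and 10 (37.0%) past 2-fold. These shares past 2-fold were larger than those of the identifiers chosen at 2-fold. With choosing and remaining probes exchanged, the share was larger at 4-fold for higher identifiers (29.1% against 22.7%). For lower ones it was then smaller (20.8% against 28.5%). Where every probe was bright, 18 of 37 higher and 38 of 84 lower identifiers were past 2-fold on the remaining probes, with medians of 0.99 and -0.96. There the median was larger at 4-fold, at 1.64 for 10 higher identifiers, 7 of them past 2-fold on the remaining probes, and -1.23 for 5 lower ones, of which 3 were. These bright sets are small.

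**Figure D5:**
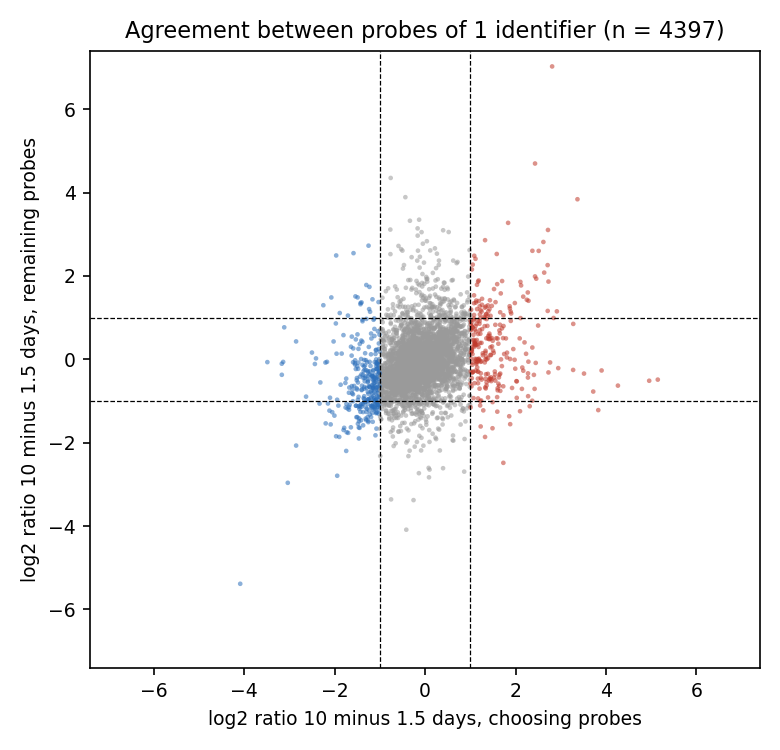
Log2 ratio of 10 to 1.5 days for 4397 identifiers with 2 or more probes, on the alternate probes used for choosing (horizontal axis) and on the remaining probes (vertical axis). Dashed lines mark 2-fold, and red and blue points are the 273 higher and 308 lower identifiers by the choosing probes, whose medians on the vertical axis are 0.30 and -0.64.

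For identifiers with several probes, the opposite sign on day 5 against before molt was read more often on the choosing than on the remaining probes. Of the 55 identifiers at least 4-fold higher on the choosing probes, those probes were at least 2-fold lower on day 5 against before molt in 41 (74.5%), with a median of -2.13, and the remaining probes in 18 (32.7%), with a median of 0.08. Of the 273 past 2-fold the numbers were 132 (48.4%), with a median of -0.93, and 54 (19.8%), with a median of -0.09. Of the 308 lower identifiers the choosing probes were at least 2-fold higher at 5 days in 92 (29.9%), with a median of 0.45, and the remaining probes in 61 (19.8%), with a median of 0.27. The reason was not tested. For scale, over all 19511 identifiers 12.2% were at least 2-fold lower and 8.61% at least 2-fold higher on day 5 against before molt. These shares are not given for the identifiers with several probes alone. With every probe bright, 10 identifiers were at least 4-fold higher on the choosing probes, and the remaining probes were at least 2-fold lower at 5 days in 6 of them, with a median of -1.89.

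The share past 2-fold also differed between kinds of identifier. Of 3649 identifiers named by a RefSeq mRNA 7.18% were higher and 6.55% lower. Of 8356 chicken Ensembl transcripts the shares were 9.51% and 6.94%, of 1256 predicted or non-coding RefSeq entries 11.8% and 6.53%, and of 6250 identifiers with other names 11.4% and 8.37%. The RefSeq mRNAs were brighter, with a median level of -0.03 against -1.31 to -0.99 for the other kinds, and 53.2% of them had 2 or more probes in use against 2.69% to 24.7%. The part of brightness and of probe number in these shares was not tested.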

How the data were processed

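Per the file headers, the authors' scanner files hold spot intensity values made with Agilent Feature Extraction 10.7.3.1 (10.7 per the submitters' processing notes), already background-subtracted within each array. The deposited series table holds log2 values for 43603 probes. Each of its columns correlated best with its own array's intensity (r of 0.9995 to 0.9999 against at most 0.983), and all had a median of 3.74; its scale is log2 and it is not centred, while how it was normalized is not stated in those sources. At 2-fold this table gave 1871 higher and 1393 lower identifiers, against 1871 and 1394 after quantile normalization. These 2 settings are thus not separate checks. Columns used by no sample numbered 0.

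Log2 intensities were scaled to each array's 75th percentile over non-control spots. Outlier spots by the program's flags, 53 over all arrays, were dropped, and 39 probes with them. Repeated spots were averaged, then an identifier's probes, provided at least 1 of the 2 arrays showed them well above background. Dim values were raised to the lowest value well above background on their array, which was -4.14 at 1.5 days, -4.01 at 10 days, -3.65 at 5 days and -4.06 before molt. A call is a ratio of at least 2-fold. The named identifiers were limited to 2 each way because the files do not pair identifiers with genes; gene lists written for the comparison could therefore not be matched and give no result. The naming rule took the largest mean ratios among identifiers with 2 or more probes, all well above background on both arrays and all past 2-fold in 1 direction. For the split of probes, those of an identifier were ordered by probe name and taken alternately. Spike-in probes were mid-range where every spot was well above background on all arrays and the mean log2 intensity lay between 5 and 16. The comparison, the lists and the naming rule were chosen with earlier results of these data known. Alternatives were median centring, quantile normalization, spike-in scaling, normexp (offset 50, on median spot and background intensities), detection on both arrays, no filter, the authors' log2 table, and the brightest probe in place of the mean. The counting was tested on simulated data with planted changes. The simulated noise was smaller than the spread between probes seen here, so this checks the counting and not the rate of false calls. Software was Python 3.11.15, numpy 2.4.6, pandas 2.3.3 and, for normexp, limma 3.58.1 under R 4.3.3. Precision is limited by the number of arrays.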

Additional observations from a re-analysis of the deposited data

How the results depend on the processing

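No replicate could be left out with 1 array per time. No paired analysis was possible because each group has 1 array. Counts at 2- and 4-fold, counts with every probe past 2-fold, the SD between probes and the ratios of the named identifiers were recomputed under each setting that gives them. After seeing the data, the counts at 8- and 16-fold, the shares nearer the 10 day level, the median steps, the 100 brightest, the medians on remaining probes, the balance of directions with several probes and the shares by kind, for 1 probe and for nearly equal levels were added, without the setting of no filter. The full placing of levels, the lower ranks of brightness, the shares past 2-fold for 2 or more probes and sets with 3 or more or 5 or more probes were not recomputed. The counts at 2- and 4-fold stayed within 1.5 times their value under median centring, quantile normalization, the authors' log2 table and the brightest probe. So did the counts with every probe past 2-fold, except that the brightest probe gives no such count. With detection required on both arrays, 105 identifiers were at least 4-fold lower, and the rest of these counts stayed within 1.5 times. With no filter, 2970 were at least 2-fold higher and 2556 lower, and 692 and 530 at 4-fold, since probes at background then enter. Under normexp 521 were higher and 479 lower, 60 and 24 at 4-fold, and 19 and 37 had every probe past 2-fold; the offset of 50 draws ratios of dim spots toward 0 by construction, and the rest of the cause was not tested. Under spike-in scaling 4366 were higher and 484 lower, 887 and 62 at 4-fold, and 237 and 14 had every probe past 2-fold, because every ratio shifts alike. Of the lower identifiers, the share at least 2-fold higher on day 5 against before molt was 11.3% under normexp, where the share of all identifiers was 1.20%, and 14.3% under spike-in scaling, where it was 2.48%. Of the values added, the median step of lower identifiers from 1.5 to 5 days turned to 0.0376 with spike-in scaling, and among the 100 brightest the higher identifiers numbered 28 to 37. The medians on remaining probes lay between 0.28 and 0.76 for higher and between -0.69 and -0.13 for lower identifiers. The settings of the comparison of 5 days with before molt were chosen after seeing the data, and no filter was not run for it. The log2 ratios of the 4 named identifiers kept their direction under every setting, and 29 of 32 moved by less than the SD between probes. The kept direction is no check, because the naming rule took the largest ratios on these same arrays. The count of 29 was also set in part beforehand. With detection on both arrays and with no filter, the ratios of these identifiers did not change at all. Median centring and spike-in scaling shift every ratio alike, by less than the SD between probes. CR389677 was 2.75 under normexp, and with the brightest probe NM_204846 was 7.02 and NM_001001296 was -5.38. The SD between probes was 0.41 under normexp. Dim probes spread most, with an SD between probes of 0.76 against 0.42 for bright ones, and the part of this in the counts was not tested.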

Other observations

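A small share of the identifiers that stood at nearly the same level at 1.5 and 10 days differed from it at the other times. Within 1.25-fold of each other at 1.5 and 10 days were 7366 identifiers (37.8%). Of these, 201 (2.73%) were at least 2-fold above their level before molt at both times and 223 (3.03%) at least 2-fold below it, and at 4-fold 12 were above and 35 below. Both readings use the same array from before molt, whose own error can set an identifier apart from both. At 5 days 110 of the 7366 (1.49%) were at least 2-fold below both their levels at 1.5 and 10 days and 62 (0.842%) at least 2-fold above both. At 4-fold 18 were below and 1 above. For scale, over all 19511 identifiers 12.2% were at least 2-fold lower and 8.61% at least 2-fold higher on day 5 against before molt, a comparison of 1 pair of arrays and not of both times. These shares depended on the scale: with spike-in scaling 13.2% were below and 0.538% above their level before molt at both times.

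Identifiers with the most probes showed small differences in their mean ratio, which averaging over probes narrows by construction. Of 159 identifiers with 5 or more probes in use (at most 11), 1 was at least 2-fold higher at 10 than at 1.5 days and 4 were lower, with mean log2 ratios between -1.26 and 1.07. Over all 19511 identifiers 9.84% were at least 2-fold higher and 7.3% lower. In 0 of the 159 was every probe past 2-fold in 1 direction, while every probe lay above 0 in 10 and below 0 in 19. Both conditions are harder to meet the more probes an identifier has. The median range between the highest and the lowest probe of these identifiers was 1.10 on the log2 scale.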
